A study of Mus musculus with 6 samples.

Results

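Cytosolic ribosomal protein genes were followed in mouse luminal uterine epithelium taken 3.5 days post coitum. Members were all genes whose symbol in the scanner tables is Rpl or Rps followed by a digit, or Rpsa, Rplp0, Rplp1 or Rplp2, without the Rps6k kinases. The rule used names only, and it gave 71 genes, carried by 105 probes, of 28877 named genes on the array. Of these, 35 encode proteins of the large ribosomal subunit, 28 proteins of the small subunit, and 7 are variant copies of another ribosomal protein gene. The remaining member, Rps19bp1, encodes a protein that binds Rps19 and is no subunit itself.

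RNA was hybridised to 6 arrays of a single Illumina bead chip, 3 from Alk3 conditional knockout mice (CKO, replicates D, E and F) and 3 from Control mice (replicates A, B and C). CKO females were homozygous for a floxed allele of Alk3, the BMP receptor gene also called Bmpr1a, and carried Cre knocked in at 1 allele of Pgr, the progesterone receptor locus, so recombination is not limited to the epithelium. The alleles of the Control mice are not given in the labels; all mice had a hybrid C57BL/6J and 129S5/SvEvBrd background. The labels do not state whether arrays hold separate animals; p-values therefore reflect only the spread between these samples. Chip position and group cannot be told apart.

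Each ribosome joins a small subunit, which reads the mRNA, to a large subunit, which forms the peptide bond, and nearly every subunit protein is present in a single copy per ribosome. Ribosomal protein mRNAs are among the most abundant in growing cells. Most begin with a terminal oligopyrimidine tract (TOP), through which mTORC1 signalling controls their translation, so mRNA level and protein output can part. A secretory epithelium that prepares for embryo attachment relies on this machinery for protein synthesis.

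The targeted gene was reported first as a check of the labels. Bmpr1a had normalised log2 signals of 8.86, 8.25 and 8.67 on CKO arrays D, E and F, against 9.26, 9.35 and 8.97 on Control arrays A, B and C. By this probe the groups did not overlap, CKO being lower, but the gene did not pass the test (log2 difference -0.60, SE 0.22, limma adjusted p 0.976), and a probe outside the deleted exon would not check the deletion. A dimmer Bmpr1a probe had 5.61, 6.88 and 6.71 in CKO and 6.61, 7.10 and 7.02 in Control (difference -0.51), and by that probe the groups overlapped. Raw medians ran from 79.7 to 87.6 and probes above background from 16620 to 17536 per array. The mean correlation of an array with the rest ran from 0.936 for CKO array E to 0.970 for Control array B. Epithelium markers were measured for 9 of 10 listed genes with a median log2 difference of -0.027, from -0.92 to 0.095. Luminal epithelium markers (5 of 6 measured) had a median of 0.095, from -1.13 to 0.77, and 1 of them was lower on every CKO array. With single arrays left out the luminal median ran from -0.23 to 0.55. Stroma markers, of which 8 of 11 were measured, had mean deviations of 1.12, 0.68 and -1.01 on CKO arrays D, E and F, against -0.41, -0.33 and -0.065 on Control arrays A, B and C. Glandular epithelium markers (5 of 6 measured) had a median of 0.36, endothelium markers (4 of 5) 0.67 and immune cell markers (4 of 7) -0.047. These medians rested on single arrays: with each array omitted they ran from -1.31 (without E) to 0.17 for glandular epithelium, from 0.087 (without E) to 1.15 for endothelium and from -0.47 to 0.43 for immune cells, and that of stroma ran from 0.077 (without D) to 1.15. In such bulk samples, fewer cells of a type and less RNA per cell cannot be told apart.

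Of the 71 members, 62 were above background (detection p under 0.05) on at least 3 arrays and could be tested; all 62 were above background on all 6 arrays. These were bright probes: on each CKO array 57 of the 62, and on Control arrays A, B and C 55, 57 and 57, exceeded the 90th percentile of raw intensity over all probes. Each of the 62 was picked as the brightest detected probe of its gene, while the percentile covers all probes, detected or not. Part of this contrast therefore comes from the selection. All 105 member probes together gave 4.80%, 5.03% and 5.09% of the summed raw signal on CKO arrays D, E and F, against 4.92%, 4.79% and 5.23% on Control arrays A, B and C. The groups overlapped in this share. Brightness depends on the probe as well as on the transcript, so no order of abundance among members was drawn. Quantile normalisation also fixes the top of the scale: Rplp1 was at 14.94 on CKO array F and on all Control arrays, although its raw intensity was 29392.5 on F and 33910.0 on Control array A.

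The other 9 members gave no usable signal. Probes of Rpl17, Rpl39l, Rps18, Rps20 and Rps23 were above background on 0 arrays, those of Rpl14 and Rpsa on at most 1, and those of Rpl6 and Rps15a on 2. All but Rpl39l encode core subunits. Rpl5 and Rpl11, which form a particle with the 5S rRNA, and Rpl10, Rps27 and Rpl7 were not analysed here.

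No ribosomal protein mRNA passed the test between CKO and Control, and most differences were small. By limma 0 members were higher and 0 were lower in CKO (smallest adjusted p 0.976), where 0.0168% of the 11940 genes tested were higher and 0% lower. An unadjusted p under 0.05 was found for 1 of 62 members, against 4.72% of all genes. The median log2 difference of the members was -0.045, beside -0.011 over all genes, and 20 of the 62 differences were positive, against 48.3% of all genes. Differences lay within 0.1 of zero for 39 of 62 members (62.9%) and for 29.4% of all genes, and within 0.5 of zero for 60 members and 86.5% of all genes. The share within 0.1 was 49.3% for mitochondrial ribosomal protein genes and 22.6% for ribosome assembly genes. It was 47.1% both for elongation and TOP mRNA genes and for initiation factor genes. All genes include many dimmer ones, and the part of brightness in this contrast was not tested. The SD over the 6 arrays had a median of 0.12 for members and 0.30 for all genes. The SD is on the log2 scale, and the upper end of that scale is held by the normalisation.

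For the brightest probe of each gene after normalisation, the arrays bounded these differences as well. For 50 of the 62 members the 95% confidence interval of the CKO minus Control difference lay within 1.5-fold in either direction, among them 47 of the 55 tested subunit genes. Rplp1 counts among the 50, although its normalised values are held at the top of the scale. Such an interval does not cover disagreement between probes of a gene. The interval reached past 1.5-fold for 12 members, among them Rps4y2, Rpl3l, Rps6, Rps7, Rps13, Rps27a, Rps3, Rpl30, Rplp0, Rpl7l1 and Rps19bp1. The median half-width of the interval was 0.39 on the log2 scale. Beads of a probe had a standard error with a median of 3.31% of the signal, and for 55 of 62 members that error was smaller than the spread between arrays of a group.

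**Figure D1:**
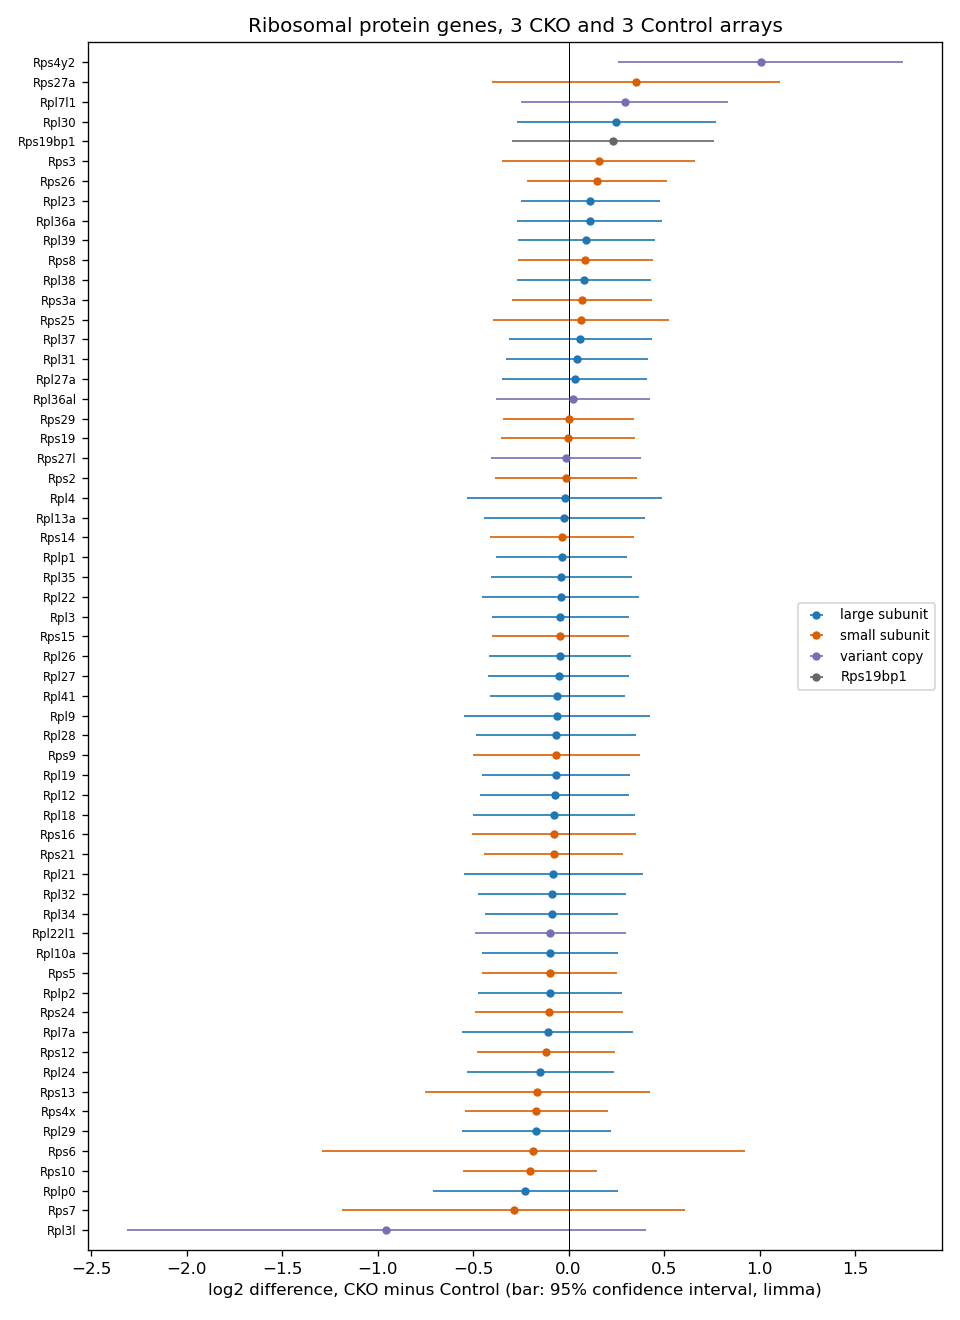
Log2 difference, CKO minus Control, of 60 of the 62 tested members on the x axis, with members in rows from the highest difference at the top; points are coloured by class and bars are 95% confidence intervals from limma (3 arrays a group). Most points lie within 0.1 of zero, and Rps4y2 at the top and Rpl3l at the bottom, both variant copies, lie apart from the subunit genes.

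Large and small subunit genes were then set side by side. The 32 large subunit genes had a median log2 difference of -0.055, with 8 positive and 24 negative, from -0.33 to 0.25. The 23 small subunit genes had a median of -0.044, with 8 positive and 15 negative, from -0.29 to 0.35. The medians of the subunits were 0.011 apart. By array, the mean deviation of large subunit genes was -0.039, -0.031 and 0.0069 on CKO arrays D, E and F, against -0.027, -0.0056 and 0.095 on Control arrays A, B and C. That of small subunit genes was -0.19, 0.092 and 0.057 on D, E and F, against 0.039, -0.018 and 0.021 on A, B and C. Large minus small was thus 0.15 on D and -0.12 on E, the highest and the lowest of the 6 arrays, with every Control array between them.

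**Figure D2:**
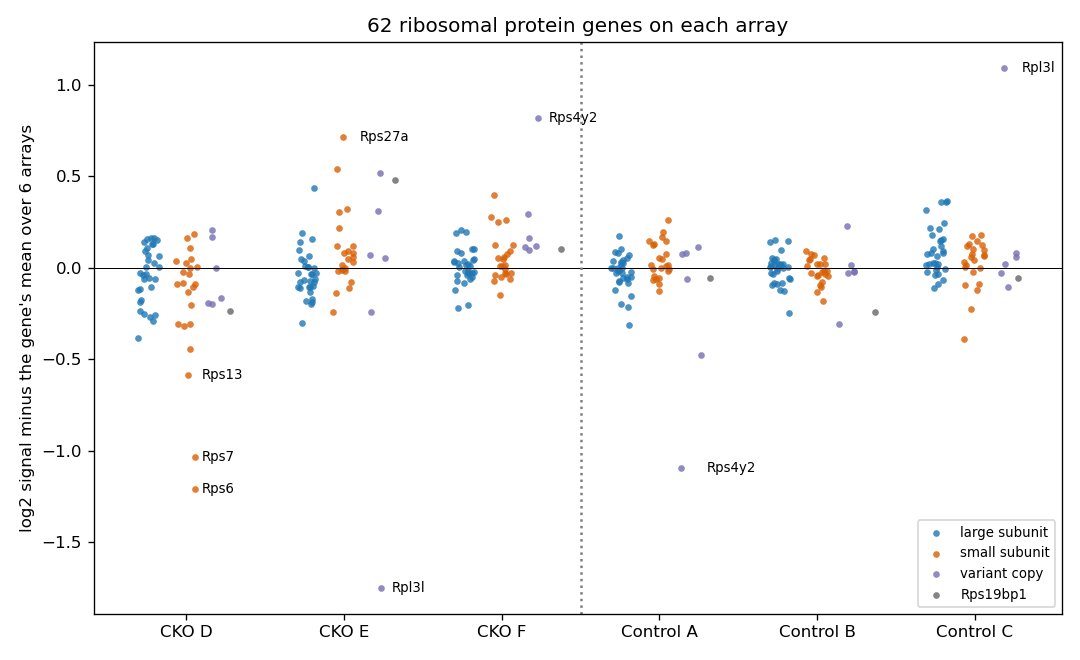
Deviation of each member from its own mean over 6 arrays (log2, y axis) on each CKO and Control array (x axis), with points coloured by class and those over 0.55 from zero named. Most members stay close to zero on every array, while Rps6, Rps7 and Rps13 are low on CKO array D and Rpl3l is low on CKO array E.

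Among large subunit genes, the stalk proteins recruit elongation factors. Rplp0 had log2 signals of 8.61, 9.06 and 8.69 in CKO and 8.87, 8.91 and 9.26 in Control, a difference of -0.23 (SE 0.20) with overlapping groups. Its partner Rplp2 differed by -0.099 (SE 0.16), also with overlap. Rplp1 lay at the top of the normalised scale, so its normalised difference, -0.036, is set by the normalisation. Its raw intensity was 30286.5, 30548.5 and 29392.5 on CKO arrays D, E and F, against 33910.0, 31799.6 and 31741.2 on Control arrays A, B and C. That is lower on every CKO array, but so was the raw median over all probes. This median was 80.2, 82.1 and 79.7 on D, E and F, against 85.4, 87.6 and 82.4 on A, B and C. The raw values of Rplp1 therefore do not separate the gene from the brightness of the whole array. Rpl3, which lies near the peptidyl transferase centre, differed by -0.043 (SE 0.15).

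Rpl29 had 12.94, 12.85 and 12.69 on CKO arrays D, E and F, against 12.86, 13.06 and 13.06 on Control arrays A, B and C (difference -0.17, SE 0.16), and the groups overlapped. The most positive large subunit gene was Rpl30, which had 9.86, 10.55 and 10.31 in CKO and 10.10, 9.87 and 10.01 in Control (difference 0.25, SE 0.22). CKO array D was the lowest of all 6 and E the highest. Rpl23 differed by 0.11 (SE 0.15) on its brightest probe, with overlapping groups. Another Rpl23 probe, nearly as bright, differed by 0.33 and was higher on every CKO array. A dimmer one differed by -0.072 with overlap.

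Several small subunit genes depended on a single array. Rps6, the phosphorylation target of the S6 kinases, had log2 signals of 11.88, 13.63 and 13.49 on CKO arrays D, E and F, against 13.24, 13.05 and 13.27 on Control arrays A, B and C. Rps7 had 12.86, 14.21 and 14.17 in CKO and 14.08, 13.98 and 14.03 in Control. Rps13 had 12.88, 13.69 and 13.60 in CKO and 13.64, 13.49 and 13.53 in Control. In all these genes array D was far below the other 5 arrays, while CKO arrays E and F were level with Control or above it.

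The low signals on D were already in the raw intensities. Rps6 read 3454.3 on D with a bead standard error of 3.42%, and 11079.4 to 12896.0 on the other CKO arrays. Rps7 read 6771.6 on D (bead standard error 3.07%) and at least 16717.2 on every other array. The spread of beads was therefore small beside the gap. Log2 differences between the groups were -0.18 (SE 0.46) for Rps6, -0.29 (SE 0.37) for Rps7 and -0.16 (SE 0.25) for Rps13, and without D they were 0.37, 0.15 and 0.089. On D, 4 members were over 0.5 below the mean of the other arrays, these 3 and Rps27a, and 0 were over 0.5 above it, which makes 6.45% of members against 25.7% of all genes. On E the members that far from the other arrays numbered 6 (9.68%, against 34.9% of all genes), 5 of them higher. Array D was the lowest of the 6 for 25 of 62 members (40.3%), against 17.6% of all genes. This was not particular to the members. D was also the lowest for 27 of 71 mitochondrial ribosomal protein genes and 6 of 17 elongation and TOP mRNA genes. It was the lowest for 7 of 31 ribosome assembly genes and 2 of 17 initiation factor genes. D was also the array with the highest stroma markers, and their part in these values was not tested.

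Rps27a, made as a fusion with ubiquitin, had 10.66, 11.82 and 11.36 in CKO and 11.15, 10.92 and 10.71 in Control. D was the lowest array and E the highest, and the difference was 0.35 (SE 0.31), 0.082 without E and 0.67 without D. Rps3, at the mRNA entry site, had 13.19, 13.82 and 13.76 in CKO and 13.44, 13.43 and 13.42 in Control (difference 0.16, SE 0.21). CKO arrays thus lay on both sides of a narrow Control group. Rps26, at the mRNA exit channel, differed by 0.15 (SE 0.15). Rps19, the gene mutated most often in human Diamond-Blackfan anaemia, differed by -0.0024 (SE 0.15).

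**Figure D3:**
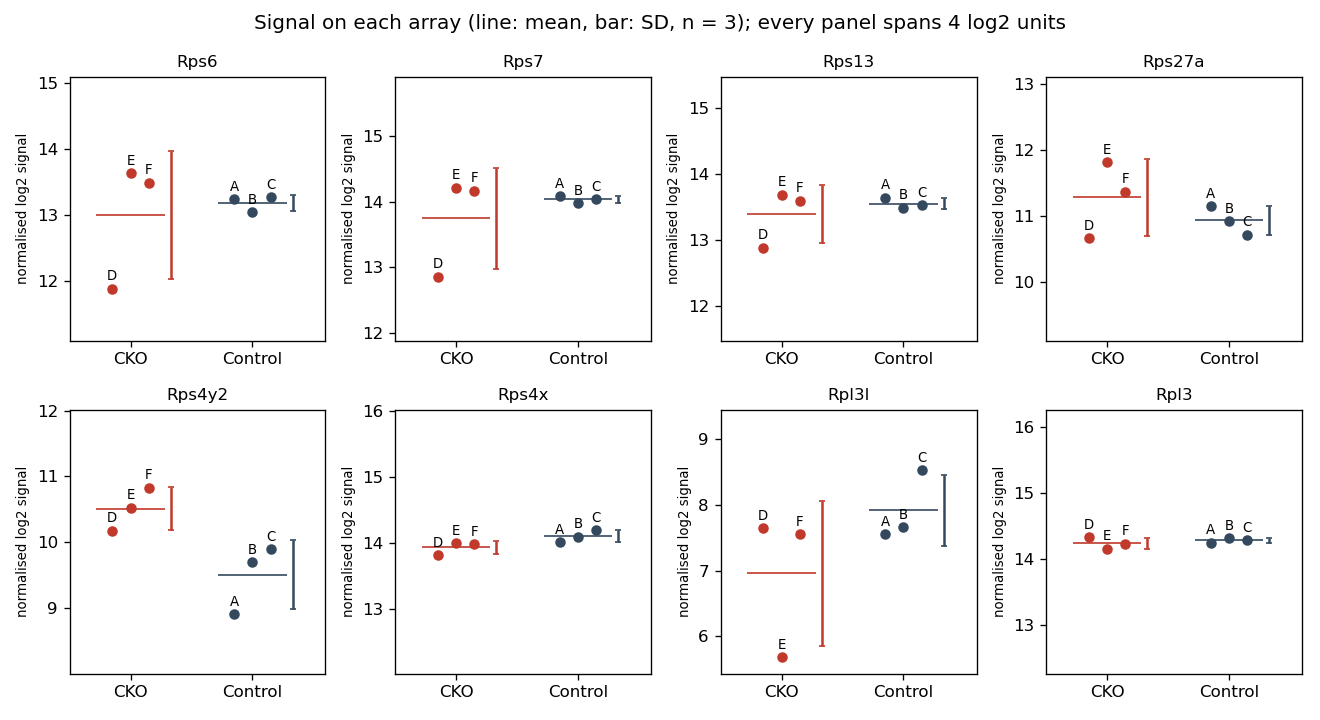
Normalised log2 signal (y axis) of 8 members on each array, with CKO left of Control, letters naming the replicates, lines the means and bars the SD (n = 3 each); every panel spans 4 log2 units. Rps6, Rps7 and Rps13 have a single low point, CKO array D, and Rps4y2 is the panel in which all CKO points lie clearly above all Control points.

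The groups did not overlap for 6 of 62 members (9.68%), against 10.6% of all genes, so this share was near the background. Higher in every CKO array were 3 of them (5.64% of all genes), among them Rps4y2 and Rpl39. Rpl39 had 14.01, 13.87 and 13.85 in CKO and 13.84, 13.83 and 13.77 in Control (difference 0.093, SE 0.15). Lower in every CKO array were the other 3 (5.01% of all genes), Rps10, Rps4x and Rpl34. Rps10 had 13.27, 13.22 and 13.28 in CKO and 13.49, 13.40 and 13.49 in Control (difference -0.20, SE 0.15). Rpl34 differed by -0.089 (SE 0.15). Except for Rps4y2 these differences were small in size, and none passed the test.

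Promoter sequence was compared because ribosomal proteins are needed in equal amounts. RefSeq promoter windows of GRCm38.p6, 250 bases before to 50 bases after the annotated start, were matched for 55 of the 71 members. The ETS factor core CCGGAAG, searched on both strands, occurred in 24 of these 55 genes (43.6%) and in 9.93% of 27025 genes. The GC box core GGGCGG, on both strands, occurred in 36 (65.5%) against 38.2%. A TOP-like tract, counted as a run of at least 5 C or T that opens with C within 5 bases of the start, occurred in 26 (47.3%) against 19.7%. The YY1 core AAGATGG, on both strands, was in 8 (14.5%) against 7.28%, and TATAAA, on both strands, in 6 (10.9%) against 15.7%. The end of CCGGAAG and the start of AAGATGG share the letters AAG, so matches of these motifs can overlap. A match describes letters only, and RefSeq starts may lie some bases from the true start. The 27025 genes were taken whether detected here or not, and the 55 include variant copies and Rps19bp1. No share over detected genes alone was taken, so these shares do not set ribosomal protein genes apart from other expressed genes.

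The 3 members that were low on array D, and 3 of those whose groups did not overlap, are shown from 80 bases before the start to 20 bases from it, 5′ to 3′ on the gene's strand, with capitals marking the motifs above and the TOP-like tract. The lines run in the order Rps6 (chr4:86857348-86857447), Rps7 (chr12:28635934-28636033), Rps13 (chr7:116334171-116334270), Rps10 (chr17:27635225-27635324), Rpl39 (chrX:37085203-37085302) and Rps4x (chrX:102189372-102189471), all on the minus strand.
Rps6: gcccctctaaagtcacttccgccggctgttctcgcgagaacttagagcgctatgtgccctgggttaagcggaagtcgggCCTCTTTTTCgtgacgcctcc
Rps7: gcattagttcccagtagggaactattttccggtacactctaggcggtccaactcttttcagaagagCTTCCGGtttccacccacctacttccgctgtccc
Rps13: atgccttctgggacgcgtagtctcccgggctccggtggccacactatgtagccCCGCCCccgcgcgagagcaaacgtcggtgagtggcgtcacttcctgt
Rps10: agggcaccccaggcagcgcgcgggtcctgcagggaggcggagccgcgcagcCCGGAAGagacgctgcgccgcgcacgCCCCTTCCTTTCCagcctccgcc
Rpl39: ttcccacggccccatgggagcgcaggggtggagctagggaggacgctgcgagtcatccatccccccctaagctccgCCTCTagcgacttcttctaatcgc
Rps4x: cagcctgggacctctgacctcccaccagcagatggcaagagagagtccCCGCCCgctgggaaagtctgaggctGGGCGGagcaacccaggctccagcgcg
Among these 3 members low on D, the printed stretch held the tract for Rps6, the ETS core for Rps7 and the GC box core for Rps13. In the whole promoter window CCGGAAG was found for both Rps6 and Rps7. Rps27a was not among the matched members.

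Of the 6 tested variant copies, Rps4y2 and Rpl3l lay outside the range of the subunit genes and the other 4 within it. Rps4y2, named Rps4l in RefSeq and listed there as a transcribed pseudogene, had log2 signals of 10.18, 10.52 and 10.83 on CKO arrays D, E and F, against 8.91, 9.70 and 9.90 on Control arrays A, B and C. Every CKO array lay above every Control array. The signal was 2.01-fold higher in CKO (log2 difference 1.01, SE 0.31, 95% confidence interval 0.26 to 1.75), but the limma adjusted p was 0.976 and the gene did not pass. Its parent gene Rps4x had 13.82, 14.00 and 13.99 in CKO and 14.01, 14.10 and 14.20 in Control, a difference of -0.17 (SE 0.16). The probes moved in opposite directions, and the difference between them was not tested. Rps4y2 had a single probe, and copies of such similar sequence may share hybridisation.

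Rpl3l, a form of Rpl3 known from heart and skeletal muscle, had 7.64, 5.69 and 7.55 in CKO and 7.55, 7.66 and 8.53 in Control. Array E alone was low, and D and F lay with Control arrays A and B. The difference was -0.95 (SE 0.57), and without E it was -0.32. Rps27l, which p53 induces in human cells, had 12.92, 13.16 and 13.23 in CKO and 13.18, 13.08 and 13.08 in Control, a difference of -0.014 (SE 0.16).

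Rpl22l1, a close relative of Rpl22, differed by -0.095 (SE 0.17) and Rpl22 by -0.041 (SE 0.17). Rpl36al differed by 0.022 (SE 0.17) and Rpl36a by 0.11 (SE 0.16). For these pairs every difference was smaller than its error. Rpl7l1 had 9.57, 10.04 and 10.03 in CKO and 9.26, 9.75 and 9.75 in Control (difference 0.29, SE 0.23). Its other probe, also above background on all arrays, differed by -0.39. Rps19bp1 differed by 0.23 (SE 0.22).

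Members with several probes show how far a single probe can be read. Of 17 members with at least 2 probes above background, 8 had differences of the same sign on all probes and 9 did not. The widest gaps between probes were 0.75 for Rps13, 0.68 for Rpl7l1, 0.57 for Rps24 and 0.43 for Rps3. For Rps13 the dim probe differed by 0.59, against -0.16 for the bright one, and was above background on 4 arrays. This dim probe had 4.67, 7.54 and 6.40 on D, E and F, against 6.44, 4.73 and 5.66 on Control arrays A, B and C. Control array B was nearly as low as D, so the dim probe does not set D apart. For Rps24 the bright probe differed by -0.10 and the dimmest by 0.46. For these 4 genes the gap between probes exceeded the size of the difference between the groups by the bright probe.

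Rack1, a scaffold on the small subunit whose symbol falls outside the rule, had 7.31, 6.75 and 6.93 in CKO and 7.19, 7.42 and 7.29 in Control (difference -0.30, SE 0.20). The 71 measured genes of mitochondrial ribosomal proteins had a median of -0.037, with 28 positive and 43 negative and 0 past the test. Within this list Mrps27 was the most positive, at 1.46 (SE 0.32), with groups that did not overlap and a signal above background on 2 of 3 Control arrays, and Mrps18a the most negative, at -0.36 (SE 0.36).

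Ribosome assembly genes were mostly positive. Of 31 measured of 40 listed, 26 were positive (83.9%, against 48.3% of all genes) and 5 negative. The median log2 difference was 0.30, with 0 past the test over all genes. Higher on every CKO array were 6 of the 31 and lower on every one 0, against 5.64% and 5.01% of all genes. A contrast with the ribosomal protein genes was not tested. Rrp12, an export and assembly factor, had 8.27, 9.04 and 8.33 in CKO and 7.75, 7.85 and 7.20 in Control (difference 0.94, SE 0.29), and the groups did not overlap. Nop2, a nucleolar rRNA methyltransferase, had 7.60, 7.75 and 7.24 in CKO and 6.95, 6.73 and 6.59 in Control (difference 0.77, SE 0.20), again without overlap. Riok1, a kinase of small subunit maturation, was the most negative at -0.13 (SE 0.15). The mean deviation of the list was -0.0093, 0.37 and 0.053 on CKO arrays D, E and F, against -0.054, -0.11 and -0.25 on Control arrays A, B and C. Array E was the highest of the 6 for 19 of the 31 genes, and without E the median was 0.12. On E glandular epithelium markers had a mean deviation of 1.37 and endothelium markers of 1.34, the highest of the 6 arrays for both, and their part in the assembly genes' values was not tested. Nop2 was named after its values were seen.

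**Figure D4:**
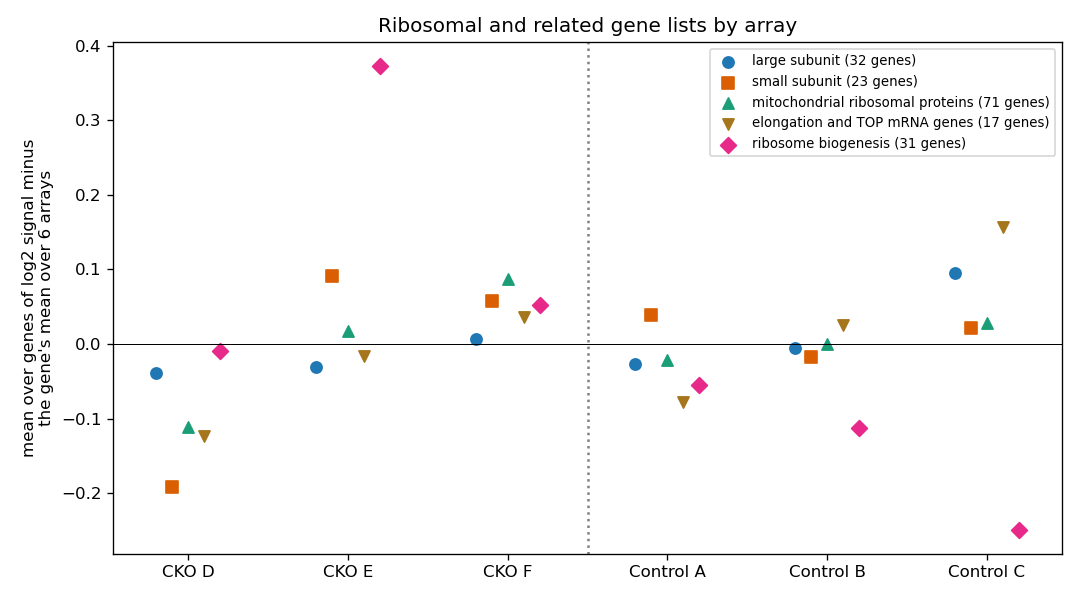
Mean over the genes of a list of the deviation from each gene's mean over 6 arrays (log2, y axis), for 5 lists on each CKO and Control array (x axis). Large and small subunit genes stay within 0.20 of zero on every array, and ribosome biogenesis genes reach 0.37 on CKO array E and -0.25 on Control array C.

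No listed gene of translation or its control passed the test. Elongation factors and other genes with TOP mRNAs had a median of -0.066 (17 measured, 6 positive, 11 negative), from Eif4b at -0.30 (SE 0.26) to Tpt1 at 0.21 (SE 0.20). Initiation factors had a median of 0.025 (17 measured, 10 positive, 7 negative), from Eif5b at -0.19 (SE 0.24) to Eif3b at 0.47 (SE 0.33). Genes of the mTORC1 and S6 kinase pathway had a median of -0.023 (16 measured, 6 positive, 10 negative), from Sesn2 at -0.51 (SE 0.50) to Tsc1 at 0.44 (SE 0.58). Of the Myc family list of 7 genes, 5 were measured, and Myc and Mycn were not among them. Positive were 3 of the 5, with a median of 0.015. That median ran from -0.46 (without D) to 0.040 (without C) and was -0.50 with the strict filter, where 3 genes were left. The extremes of the list were Mxd4, a Myc antagonist, at -0.54 (SE 0.20) and Mxd1 at 0.11 (SE 0.51). Mxd4 and Mycl (-0.50, SE 0.19, named after its values were seen) were lower on every CKO array, each with an unadjusted limma p under 0.05. Over all genes 5.01% were lower on every CKO array, and 4.72% had an unadjusted p under 0.05. Both genes had a limma adjusted p of 0.976. In the p53 and nucleolar stress list 2 of 6 measured were positive, with a median of -0.24, from Sesn1 at -1.43 (SE 0.97) to Trp53 at 0.38 (SE 0.27). These values depended on array E: without it Sesn1 was -0.29, Trp53 0.13 and the median 0.042, and without D the median was -0.48. Members past the test numbered 0 in each of these lists.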

How the data were processed

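Per the file headers, the authors' scanner tables give a bead-averaged intensity, a detection p-value, a bead standard error and a bead number per probe and array, and these intensities were not normalised. The authors' deposited table of processed intensity values was used as an alternative; judged from its values it is linear, background-subtracted and quantile-normalised, by software the labels and headers do not name. Intensities were corrected by normexp with controls inferred from detection p-values, an offset of 16 and quantile normalisation on the log2 scale (neqc, limma 3.58.1, R 4.3.3). The offset shrinks differences of dim genes. Probes with a deposited detection p-value under 0.05 on at least 3 arrays were kept, genes were named through a RefSeq table of GRCm38.p6, and the brightest probe stood for its gene (11940 genes). The comparison of CKO with Control was a two-sided limma fit (lmFit, then eBayes). P-values were adjusted across the whole table by Benjamini-Hochberg and called under 0.05. Every SE is from this fit.

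Members and lists were chosen with earlier results of these data known. Named were the 8 highest and the 8 lowest members by difference, members whose groups did not overlap, a set of stalk and other known proteins (Rplp0, Rplp1, Rplp2, Rpl5, Rpl11, Rpsa, Rps6, Rps19, Rps27a, Rps3, Rpl3, Rpl10), variant copies with their parents, Rack1, the extremes of each other list, and the 4 members whose probes disagreed most in sign; some genes that this rule names are not reported here. The alternatives were 2 other background corrections, median scaling, cyclic loess, the deposited values, no filter, a strict filter, the mean of probes, a robust fit with a variance trend, weights per array, and omission of single arrays. The fit was tested on simulated data. The number of arrays limits the precision.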

Additional observations from a re-analysis of the deposited data

How the results depend on the processing

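No paired analysis was possible because the replicates carry the letters A to F and the groups share none. Ribosomal protein genes called higher or lower stayed at 0 under all 16 alternatives. Genes called higher over the whole array, 2 in the reported setting, were 1 with normexp without controls, no background correction, median scaling, cyclic loess and the deposited values, 0 with no filter and with the strict filter, 5 with array weights, and between 0 and 1 when each array was omitted. The count of members with a positive difference, 20, was 15 with median scaling, 26 with cyclic loess, 33 with array weights, and from 20 to 31 when each array was omitted (31 without D). The member median, -0.045, was -0.12 with median scaling, where the median of all genes was -0.077, and 0.017 with array weights, which give less weight to arrays that stand apart. It ran from -0.065 to 0.00033 with single arrays left out, 0.00033 without D. The large subunit median was -0.12 with median scaling, 0.0025 when arrays were weighted, and between -0.076 and -0.019 when each array was omitted; the small subunit median was -0.13 with median scaling and -0.074 to 0.036 with single arrays left out (0.036 without D). Their difference ran from -0.070 to 0.026 with single arrays left out.

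The sign held under all alternatives for 30 of 47 named genes and changed for 17. With the mean of probes Rpl7l1 was -0.047, Rps3 -0.057, Rps19 0.082, Rps13 0.21 and Rps24 0.15, since dimmer probes then enter. With array weights Rps6 was 0.22, Rps7 0.023, Rps27l 0.090, Rpl22l1 0.048, Rpl22 0.016, Sesn2 0.23, Mxd1 -0.063 and Rps13 0.0098. With cyclic loess Rplp1 was 0.035, Rps19 0.026 and Rpl3 0.00085, and with median scaling Rpl36al was -0.067. With single arrays left out the genes that changed sign ran from -0.50 to 0.37 for Rps6, -0.51 to 0.15 for Rps7, -0.31 to 0.089 for Rps13, -0.046 to 0.025 for Rps19, -0.076 to 0.081 for Rps27l, -0.17 to 0.0012 for Rpl22l1, -0.054 to 0.13 for Rpl36al, -0.12 to 0.038 for Rpl22, -0.035 to 1.09 for Tsc1, -0.46 to 0.40 for Mxd1 and -0.62 to 0.049 for Mrps18a. Rps4y2 kept its sign throughout, from 0.71 without A to 1.20 without C. Except where the construction of an alternative shows it, the cause was not tested.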
